A study of Mus musculus with 12 samples.

Results

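The comparison described here sets mouse breast tumour cells that carry a dominant negative TCF4 construct plus EZH2 (DNTCF4_EZH2, the EZH2 group) against the same cells with that construct plus one labelled SET (DNTCF4_SET, the SET group). Both groups are CCN6KOT cells, a primary line from a spindle metaplastic mammary tumour of the mouse, and both had taken up lentivirus and been selected with puromycin. Both carry DNTCF4, so the second construct is what differs by label. RNA was sequenced in 3 libraries per group, 6 of the 12 in the series; the other 6 are cells with DNTCF4 and no second protein (DNTCF4) and cells with a control vector (Vector). Genes were taken into the comparison by 1 rule, at least 10 counts in at least 3 of the 6 libraries, which 14591 of the 55492 features in the table met. The labels do not expand SET, and no source used here gives the species or sequence of either construct, so which protein or part of one the SET construct encodes is not known here; reads on Ezh2 were high in both groups and those on Set did not pass the test between them. They name 1 tumour line and not the number of cultures behind the 3 libraries of a group, so that p-values here reflect only how these libraries vary, possibly for technical reasons.

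EZH2 is the enzyme of Polycomb repressive complex 2 (PRC2) that methylates lysine 27 of histone H3, a mark found on repressed developmental genes, and its catalytic part is called the SET domain. SET is also the name of an unrelated nuclear protein that inhibits the phosphatase PP2A. TCF4, encoded by Tcf7l2, is the DNA-binding partner of beta-catenin in Wnt signalling, and a dominant negative form blocks that partnership. The interferon response, to which many of the differing genes belong, is a set of antiviral genes switched on through a promoter element called ISRE.

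Interferon-response genes were lower in the EZH2 group than in the SET group. Of the 67 tested genes of that list, 47 were called lower with EZH2 and 0 higher, by factors of up to 3.57 (Ifi44). Genes of mitosis (25 of 57) were higher with EZH2 by smaller factors. So were 12 of 24 genes of SR splicing factors and their partners, a list put together after these values were seen, so that its count only describes them. The other lists were chosen with earlier results of these data known. Over all 14591 genes, 796 were called (5.46%), 434 higher with EZH2 (2.97%) and 362 higher with SET (2.48%), at an adjusted p under 0.05 from edgeR's quasi-likelihood test. Most of the differences were small: 88.8% of the called genes differed by less than 1.5-fold, and 21 (0.144%) by 2-fold or more, 7 higher with EZH2 and 14 higher with SET. The median log2 difference over all genes was -0.00073.

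The 12 libraries shared 1 estimate of the spread, and the number of calls depended on DNTCF4 replicate 1, which is in neither group. Without it 2119 genes were called and in a fit of the 6 libraries alone 2160, and in both fits all 796 were among them. Leaving out replicate 1, 2 or 3 of the EZH2 group lowered the count to 425, 389 and 367, and of the SET group to 463, 407 and 373. The counts of list members in such refits, given below, are to be read beside these totals. An adjustment for GC content gave 1747 calls, with 781 of the 796 among them.

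**Figure D1:**
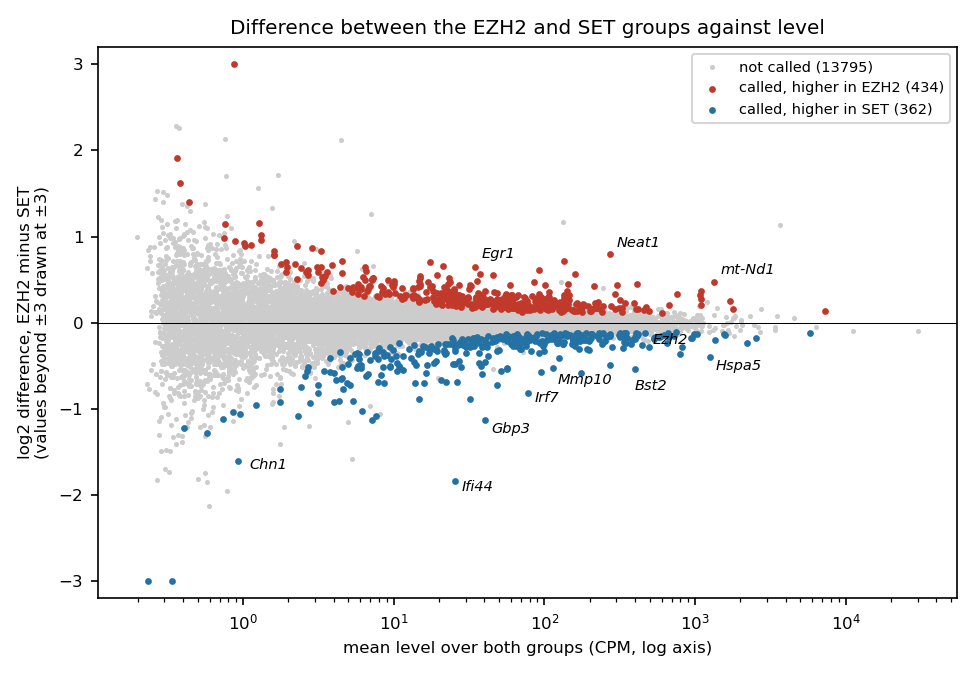
Each point is 1 of 14591 genes, placed by its mean level over both groups (horizontal, CPM, log axis) and its log2 difference, EZH2 minus SET (vertical, with values beyond 3 in either direction drawn at 3); the 434 genes called higher with EZH2 are red, the 362 called higher with SET blue and the rest grey. Ifi44 and Gbp3 lie farthest below 0 among genes above 10 CPM, and Neat1 lies highest among called genes above 100 CPM.

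Totals ran from 26738946 to 33999982 counts in the 6 libraries, so a gene without a count lies below 0.0882 to 0.112 CPM (a gene's counts scaled to the size of its library), from a floor of 3 counts that covers counting error only. Levels below are CPM scaled by TMM factors, per library in the order of replicates 1, 2 and 3 or as mean ± SD (n = 3), and differences are log2, EZH2 minus SET, with their standard error (SE). Within each group the replicates varied beyond sampling noise: chi-square over its degrees of freedom was 2.42 to 4.05 once 1 ribosomal RNA gene was left out. That gene took 0.133%, 0.931% and 0.449% of the counts in the EZH2 libraries and from 0.173% to 0.301% in the SET libraries. The line's spindle cell label was checked against markers: the 10 fibroblast and mesenchymal genes listed summed to between 6910 and 7055 CPM with EZH2 and between 6466 and 6909 with SET. Fn1 alone gave 4627 ± 47.2 and 4473 ± 217 CPM of these sums, and Col3a1, Fap and Thy1 had at most 5 counts in any of the 6 libraries. Of the epithelial markers, Krt8 and Krt18 were measured at 83.5 ± 3.95 and 255 ± 9.05 CPM with EZH2, while Epcam and Cdh1 lay at 0.678 ± 0.0372 and 0.888 ± 0.0851 and Krt5 had 2 counts in 1 library and 0 in the other 5. The 8 lymphocyte markers summed to 0.27 to 0.754 CPM over the 6 libraries, and Ptprc had 0 to 4 counts in each. The 10 macrophage markers summed to 76.1 to 81.7 CPM with EZH2 and 68.2 to 76.5 with SET. Cd68 alone gave 67.3 ± 2.599 and 62.2 ± 4.09 CPM of these sums, C1qa and C1qb had 0 counts, Adgre1 and Itgam had at most 6 counts in each library, and the part of macrophage RNA in the interferon result was not tested. In bulk RNA, fewer cells of a type and less RNA per cell cannot be told apart.

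The first 4 promoters below are those of the interferon genes with the smallest p that hold the ISRE core upstream of the start, and the other two belong to genes of the unfolded protein response described later. They are the 250 bases before the RefSeq start in GRCm38.p6, 5′ to 3′ on the gene's strand, with matches to the searched motif in capitals on either strand.
Gbp3 (chr3:142559794-142560043, plus strand): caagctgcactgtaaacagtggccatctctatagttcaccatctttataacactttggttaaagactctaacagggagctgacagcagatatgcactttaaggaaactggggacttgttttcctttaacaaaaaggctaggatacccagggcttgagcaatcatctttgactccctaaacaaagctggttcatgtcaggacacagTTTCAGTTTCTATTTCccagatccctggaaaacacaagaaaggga
Bst2 (chr8:71537473-71537722, minus strand): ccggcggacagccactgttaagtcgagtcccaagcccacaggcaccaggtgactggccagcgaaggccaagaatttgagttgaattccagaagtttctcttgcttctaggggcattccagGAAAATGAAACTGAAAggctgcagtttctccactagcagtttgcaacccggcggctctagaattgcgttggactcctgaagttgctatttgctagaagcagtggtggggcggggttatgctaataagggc
Oas1a (chr5:120907526-120907775, minus strand): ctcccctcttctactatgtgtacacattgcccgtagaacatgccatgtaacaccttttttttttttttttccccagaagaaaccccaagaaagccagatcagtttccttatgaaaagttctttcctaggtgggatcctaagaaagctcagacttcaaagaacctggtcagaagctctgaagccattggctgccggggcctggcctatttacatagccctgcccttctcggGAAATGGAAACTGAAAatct
Oas3 (chr5:120777660-120777909, minus strand): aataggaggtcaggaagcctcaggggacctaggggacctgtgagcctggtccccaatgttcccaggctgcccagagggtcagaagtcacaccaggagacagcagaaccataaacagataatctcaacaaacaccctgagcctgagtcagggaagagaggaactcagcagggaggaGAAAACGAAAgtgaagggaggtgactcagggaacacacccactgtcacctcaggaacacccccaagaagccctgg
Hspa5 (chr2:34771840-34772089, plus strand): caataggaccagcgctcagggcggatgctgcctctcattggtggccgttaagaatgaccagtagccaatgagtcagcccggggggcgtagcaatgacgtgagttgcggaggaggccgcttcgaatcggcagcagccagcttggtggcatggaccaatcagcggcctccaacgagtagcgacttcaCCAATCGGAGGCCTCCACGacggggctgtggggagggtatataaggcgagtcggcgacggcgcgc
Pdia6 (chr12:17266339-17266588, plus strand): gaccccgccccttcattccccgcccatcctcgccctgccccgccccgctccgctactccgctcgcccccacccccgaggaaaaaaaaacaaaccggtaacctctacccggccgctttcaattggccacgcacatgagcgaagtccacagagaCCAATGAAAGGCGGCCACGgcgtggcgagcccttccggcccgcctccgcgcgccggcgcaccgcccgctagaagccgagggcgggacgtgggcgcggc

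The ISRE core was searched as GAAA, any 2 bases and GAAA, on both strands and with overlapping matches allowed. Windows of 250 bases before to 50 after the start were at hand for 10546 of the tested gene symbols, and 3.7% of them held it. Among the interferon genes 19 of 34 called ones with a window held it (55.9%), and so did 9 of 17 that were not called (52.9%). Over all called genes the core was in 33 of 281 windows of genes higher with SET (11.7%) and in 7 of 317 of genes higher with EZH2 (2.21%). The 33 include the 19 interferon genes, since every called gene of that list was higher with SET, so the 2 shares are not separate results. A match is a run of letters, not a bound site. Ifi44, which had the largest interferon difference, holds no such run in its window.

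Ifi44 (interferon-induced protein 44; ENSMUSG00000028037, chromosome 3, 151730922 to 151749960, GRCm38) stood at 11.02, 12.3 and 10.2 CPM in the EZH2 libraries and 37.9, 42.3 and 39.4 in the SET libraries. All 3 EZH2 values lie far below the SET values, a 3.57-fold difference (log2 difference -1.84, SE 0.065, adjusted p = 2.66e-10). In the DNTCF4 and Vector libraries Ifi44 stood at 155 ± 7.11 and 147 ± 1.02, so the SET group lay between the EZH2 group and the cells without a second protein. Gbp3, a guanylate-binding GTPase of the defence against intracellular microbes (chromosome 3, 142560026 to 142573209), was at 25.7, 24.7 and 25.99 CPM with EZH2 and 55.04, 54.9 and 56.9 with SET (log2 difference -1.13, SE 0.053, adjusted p = 6.14e-09). It had 131 ± 9.25 CPM in DNTCF4.

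Of the regulators of the response, some were called and others were not. Irf7, the transcription factor that amplifies interferon production (chromosome 7, 141262706 to 141266481), was at 53.9, 57.7 and 58.2 CPM with EZH2 and 102, 98.3 and 98.5 with SET (log2 difference -0.82, SE 0.070, adjusted p = 5.67e-06), and at 179.6 ± 22.6 in DNTCF4. Irf9, a transcription factor that binds ISRE, was at 21.6, 19.8 and 21.00 against 29.8, 29.8 and 27.2 CPM (log2 difference -0.47, SE 0.067, adjusted p = 0.000697). Stat2 did not pass the test, at 45.2 ± 1.501 against 45.7 ± 0.262 CPM (log2 difference -0.01, SE 0.045, adjusted p = 0.903), nor did Irf1 at 46.2 ± 1.55 against 44.1 ± 1.74. The receptor genes Ifnar1 (-0.04, SE 0.036) and Ifnar2 (0.03, SE 0.041) did not pass either. Usp18, which damps signalling from the receptor, was at 3.89, 4.37 and 4.05 against 8.42, 8.41 and 8.15 CPM, 2.03-fold higher with SET (log2 difference -1.02, SE 0.093, adjusted p = 1.11e-05).

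Antiviral effectors made up most of the list. The 2'-5' oligoadenylate synthetases activate an RNase on sensing double-stranded RNA. Oas1a was at 9.59, 10.3 and 11.3 CPM with EZH2 and 18.7, 18.9 and 20.1 with SET (log2 difference -0.89, SE 0.063, adjusted p = 7.17e-07). Oas2 was at 4.33, 4.47 and 5.97 against 11.7, 9.16 and 10.2 (log2 difference -1.08, SE 0.11, adjusted p = 3.82e-05), and Oas3 at 16.96, 16.7 and 17.2 against 27.8, 28.5 and 25.9 (log2 difference -0.69, SE 0.051, adjusted p = 1.09e-06). The EZH2 and SET libraries did not overlap for any of these 3, nor for 32.5% of all genes. Single genes said here and below not to overlap were named because they were called, so this only describes them. Oasl2, a relative of the same family, was at 35.4, 36.4 and 38.2 against 60.4, 61.6 and 59.8 CPM (log2 difference -0.73, SE 0.055, adjusted p = 1.25e-06). Bst2, the tether that holds budding virus at the cell surface, was the most precisely measured of them, at 321, 327 and 329.9 against 480.1, 465 and 470.4 CPM (log2 difference -0.53, SE 0.035, adjusted p = 3.07e-07).

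Isg15, a ubiquitin-like modifier, was at 21.8, 24.8 and 22.6 CPM with EZH2 and 31.6, 32.9 and 34.1 with SET (log2 difference -0.51, SE 0.058, adjusted p = 0.000106). Ifitm3, which blocks entry of enveloped viruses, was at 43.4, 39.98 and 41.8 against 60.9, 63.1 and 60.9 (log2 difference -0.56, SE 0.076, adjusted p = 0.000461), and the chaperone of receptors Rtp4 at 22.2, 24.4 and 21.2 against 41.3, 40.9 and 43.3 (log2 difference -0.89, SE 0.054, adjusted p = 1.61e-07). Groups did not overlap for any of the 3. The sensors of cytoplasmic nucleic acid were also higher with SET in part: Ddx58, encoding RIG-I, differed by -0.52 (SE 0.060, adjusted p = 0.00011), Ifih1, encoding MDA5, by -0.70 (SE 0.12, adjusted p = 0.0024) and Zbp1 by -0.52 (SE 0.071, adjusted p = 0.000496). Of the 38 tested genes on the list of sensors and inflammasome parts 6 were called (15.8%, against 5.46% of all genes). All 6 were higher with SET, and the list median was -0.042. Cgas (-0.10, SE 0.074), Sting1 (0.05, SE 0.062) and Tlr3 (-0.23, SE 0.19) did not pass.

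For the whole interferon list, the SET libraries lay above the EZH2 libraries without overlap in 56 of 67 genes, against 16.3% of all genes in that direction, and the median log2 difference was -0.44. The 20 genes that did not pass include Mx1 (-0.11, adjusted p = 0.886), Rsad2 (-0.03, 0.863), Isg20 (0.01, 0.959) and Trex1 (-0.12, 0.825). Without any 1 of the 6 libraries 40 to 43 were called, and 46 to 53 under the other alternatives. The list of guanylate-binding proteins and immunity-related GTPases shares 8 of its members with the interferon list. Of its 15 tested genes 9 were called (60%, against 5.46% of all genes), all higher with SET (median -0.37). Among them were Gbp7 at 42.1, 49.95 and 45.4 against 66.7, 66.8 and 65.9 CPM (log2 difference -0.54, SE 0.053, adjusted p = 2.5e-05) and Irgm1 (log2 difference -0.50, SE 0.072, adjusted p = 0.000793). The count was 5 without SET replicate 3 and 6 without EZH2 replicate 1. Members of the Oas, Gbp, Irg and Ifi200 families resemble each other in sequence, so the division of reads among close copies depends on the counting. MHC class I and antigen-processing genes, which interferon can also induce, gave 1 call in 24 (4.17%, below the 5.46% of all genes). It was the chaperone gene Calr, a call lost without 5 of the 6 libraries. H2-K1 (0.02, SE 0.029), B2m (0.05, SE 0.047) and Tap1 (-0.12, SE 0.048) did not pass.

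**Figure D2:**
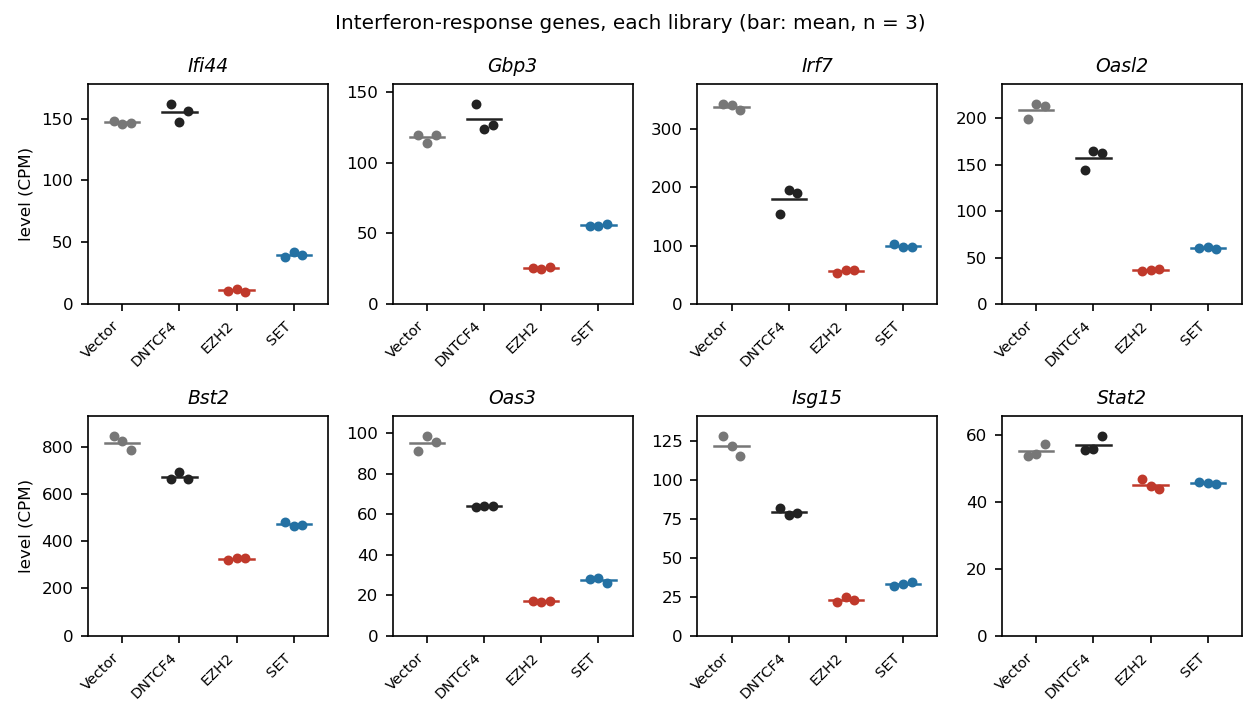
Level (CPM, vertical, from 0) of 8 interferon-response genes in each of the 12 libraries, grouped as Vector, DNTCF4, DNTCF4 plus EZH2 and DNTCF4 plus SET, with a bar at each mean. In 7 of the panels the 3 EZH2 values lie below the 3 SET values and both below DNTCF4; for Stat2, not called, the EZH2 and SET means are 45.2 ± 1.501 and 45.7 ± 0.262 CPM.

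The 2 groups can also be set beside the DNTCF4 cells, with the caution that both comparisons use the same 3 DNTCF4 libraries. Of the 67 interferon genes 62 were lower with EZH2 than in DNTCF4 (13% of all genes were) and 0 higher, with a median log2 difference of -1.27. With SET 61 were lower (13.4% of all genes) and 1 higher, with a median of -0.85. Without DNTCF4 replicate 1, which stands apart from its group, 63 and 60 were lower. In the DNTCF4 libraries Irf7 stood at 154, 195 and 189.8 CPM and Oasl2 at 145, 165 and 163, above each EZH2 and SET value given before.

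Part of the inflammatory genes were lower with EZH2 too, by smaller factors. Of 58 tested cytokine, chemokine and NF-kappaB response genes 13 were called higher with SET and 2 higher with EZH2 (Ccl20 and Cxcl10). These calls make up 25.9% of the list, against 5.46% of all genes, and the list median was -0.051. Il6, the acute-phase cytokine (chromosome 5, 30013114 to 30019981), was at 12.8, 12.1 and 11.3 CPM with EZH2 and 18.4, 19.3 and 21.2 with SET, a 1.63-fold difference (log2 difference -0.70, SE 0.084, adjusted p = 0.000166). It stood at 17.4 ± 2.08 in DNTCF4 and 2.82 ± 0.0694 in Vector. Csf3, the growth factor of neutrophils, was at 171, 174 and 172 against 217, 209.9 and 209.7 CPM (log2 difference -0.30, SE 0.038, adjusted p = 0.000244). Cxcl2, a chemokine that attracts them, was at 249, 260.5 and 248 against 299.7, 313 and 310.5 (log2 difference -0.29, SE 0.045, adjusted p = 0.00148). The groups did not overlap for either gene.

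Il1a, encoding interleukin 1 alpha, was at 35.1, 39.4 and 35.8 against 48.1, 46.9 and 49.3 CPM (log2 difference -0.39, SE 0.066, adjusted p = 0.00263), and Ptgs2, the inducible cyclooxygenase, at 2048, 2027 and 2055 against 2391, 2427 and 2407 (log2 difference -0.24, SE 0.044, adjusted p = 0.00533). Tnfaip3, the feedback inhibitor of NF-kappaB, was higher with SET as well (log2 difference -0.27, SE 0.040, adjusted p = 0.000884), while Nfkbia did not pass (-0.13, SE 0.042). The count of 13 was 8, 9 and 8 without EZH2 replicate 1, 2 or 3 and 10, 8 and 7 without SET replicate 1, 2 or 3, and it was 16 without DNTCF4 replicate 1. Ccl20 lost its call without 5 of the 6 libraries (log2 0.49 to 0.64). Cxcl10, at 3.27, 3.03 and 3.102 against 2.54, 1.999 and 1.76 CPM (log2 difference 0.59, SE 0.16, adjusted p = 0.0486), lost its call likewise without 5 of the 6 (log2 0.46 to 0.61).

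Of 42 genes of the unfolded protein and integrated stress responses 11 were called (26.2%, against 5.46% of all genes), all higher with SET. The other 31 were not, and the list median was -0.062. Set against DNTCF4, 23 of the 42 were called lower and 1 higher with EZH2, and 18 lower and 3 higher with SET. Of all genes 13% were called lower with EZH2 and 13.4% with SET. Of the 11, Hspa5, Manf, Sdf2l1, Pdia4, Pdia6, Creld2, Calr and Hyou1 encode chaperones and folding factors of the endoplasmic reticulum. Hspa5, encoding the main chaperone BiP (chromosome 2, 34771970 to 34777547), was at 1081, 1072 and 1088 CPM with EZH2 and 1389, 1423 and 1466 with SET (log2 difference -0.40, SE 0.043, adjusted p = 6.06e-05). Sdf2l1, a BiP cofactor, was at 55.4, 54.2 and 55.1 against 64.6, 65.8 and 64.8 (log2 difference -0.25, SE 0.049, adjusted p = 0.00857), and Atf3, a stress-induced transcription factor, at 21.8, 22.4 and 23.2 against 26.9, 26.9 and 26.5 (log2 difference -0.25, SE 0.044, adjusted p = 0.00347). Each SET value exceeds each EZH2 value for these 3 genes. Pdia6, a disulphide isomerase, was at 509.7, 514 and 513 against 567, 575 and 580.0 (log2 difference -0.16, SE 0.034, adjusted p = 0.0114), a call lost without EZH2 replicate 1 or 3 or SET replicate 3 (log2 -0.16 without each). Ddit3 (-0.02, SE 0.040), Trib3 (-0.04, SE 0.036) and Xbp1 (-0.08, SE 0.041) did not pass. The count of 11 was 5, 6 and 5 without EZH2 replicate 1, 2 or 3 and 7, 8 and 6 without SET replicate 1, 2 or 3. The endoplasmic reticulum stress element, searched as CCAAT, any 9 bases and CCACG on both strands, was in 4 of 9 windows of called genes of the list (44.4%), in 2 of 28 of those not called (7.14%) and in 0.161% of all tested genes with a window. Those of Hspa5 and Pdia6 are the capitals in the sequences above.

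Genes of the G2 and M phases of the cell cycle were higher with EZH2 in small steps. All 57 had a positive log2 difference, from 0.04 to 0.30 (median 0.19), and 25 were called (43.9%, against 5.46% of all genes). In 51 the EZH2 libraries lay above the SET libraries without overlap (16.2% of all genes did). Prc1, which bundles the microtubules of the central spindle (chromosome 7, 80294450 to 80316259), was at 118, 119 and 121 CPM with EZH2 and 95.1, 98.4 and 97.3 with SET (log2 difference 0.30, SE 0.043, adjusted p = 0.000741). Racgap1, its partner in cytokinesis, was at 136, 135 and 138 against 118, 117 and 116 (log2 difference 0.22, SE 0.036, adjusted p = 0.00205), and Birc5, encoding survivin, at 50.2, 49.5 and 46.3 against 40.4, 40.3 and 42.3 (log2 difference 0.25, SE 0.044, adjusted p = 0.00369). Neither these groups nor those of Tacc3 (log2 difference 0.23, SE 0.038, adjusted p = 0.00243) and Anln (log2 difference 0.23, SE 0.045, adjusted p = 0.00753) overlapped. Mki67 (0.10, SE 0.037, adjusted p = 0.137), Top2a (0.17, SE 0.049, adjusted p = 0.0657) and Cdk1 (0.10, SE 0.052, adjusted p = 0.327) did not pass. The count of 25 changed with the libraries used, as did the count over all genes. It was 13, 9 and 8 without EZH2 replicate 1, 2 or 3 and 14, 13 and 12 without SET replicate 1, 2 or 3. It was 42 without DNTCF4 replicate 1. Over all genes the 796 calls became 367 to 463 without 1 of the 6 libraries and 2119 without DNTCF4 replicate 1. Of 53 genes of G1/S and DNA replication 5 were called (9.43%), all higher with EZH2 (median 0.080). That count was 0 to 3 without any 1 of the 6 libraries and 17 without DNTCF4 replicate 1. The mitotic CHR element (TTTGAA, both strands) was in 11 of 20 windows of called G2/M genes and 22 of 28 of those not called, against 14.2% of all tested genes.

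Genes of SR proteins and their partners were higher with EZH2 in part; the splicing lists and Arglu1, Pnisr, Nxf1 and Ogt were chosen after their values were seen. Of 24 SR proteins, CLK kinases and partners 12 were called (50%, against 5.46% of all genes), all higher with EZH2 (median 0.15). Set against DNTCF4, 12 of the 24 were called lower and 2 higher with EZH2 (median -0.14). With SET 19 were called lower and 0 higher (median -0.32). Of all genes 13% were called lower with EZH2 and 13.4% with SET. Srsf1, the founding SR protein (chromosome 11, 88047373 to 88053755), was at 152, 152 and 148 CPM with EZH2 and 116, 123 and 123 with SET (log2 difference 0.32, SE 0.042, adjusted p = 0.000354), and Srsf2 at 157, 155 and 151 against 125, 125 and 129 (log2 difference 0.29, SE 0.039, adjusted p = 0.000408). Ccnl2, a cyclin found in nuclear speckles, differed likewise (log2 difference 0.32, SE 0.046, adjusted p = 0.00076). Clk1 (0.08, SE 0.067) and Clk4 (0.10, SE 0.078), kinases that phosphorylate SR proteins, did not pass, while Clk2 did (log2 difference 0.21, SE 0.041, adjusted p = 0.00606). The 12 called higher with EZH2 than with SET became 7, 7 and 8 without EZH2 replicate 1, 2 or 3. They became 8, 9 and 8 without SET replicate 1, 2 or 3. Of 20 genes of heterogeneous nuclear ribonucleoproteins 4 were called higher with EZH2 (20%, list median 0.032), and 0 without any 1 of the 6 libraries. Of 44 core spliceosome genes 2 were called (4.55%, near the share of all genes). Arglu1, which binds SR proteins, was at 163, 165 and 167 against 119, 121 and 122 CPM (log2 difference 0.45, SE 0.044, adjusted p = 2.2e-05), Pnisr at 157, 158 and 161 against 121, 126 and 122 (log2 difference 0.37, SE 0.041, adjusted p = 8.32e-05) and Nxf1, the main mRNA exporter, at 119.6, 120.3 and 121 against 91.4, 94.8 and 95.1 (log2 difference 0.36, SE 0.034, adjusted p = 1.95e-05). Ogt, the transferase of O-GlcNAc, was at 349, 342 and 356 against 248, 265 and 257 (log2 difference 0.44, SE 0.048, adjusted p = 6.06e-05).

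Among long non-coding RNAs, Neat1, the scaffold of nuclear paraspeckles (ENSMUSG00000092274, chromosome 19, 5824708 to 5845478), had the smallest adjusted p of any gene higher with EZH2. It was at 336, 352 and 353 CPM with EZH2 and 199, 202 and 199.8 with SET, 1.73-fold apart (log2 difference 0.79, SE 0.031, adjusted p = 6.14e-10), and at 478 ± 4.99 in DNTCF4 and 321 ± 3.33 in Vector. The SET group was thus the lowest of the 4. Malat1, its neighbour, did not pass, at 2019.7 ± 48.5 against 1990.2 ± 43.3 CPM (log2 difference 0.02, SE 0.078, adjusted p = 0.918). Mir100hg, the host transcript of a microRNA cluster named after its values were seen, was at 110.4, 109.7 and 112 against 72.8, 71.7 and 72.7 (log2 difference 0.61, SE 0.038, adjusted p = 1.61e-07). A gene model inside the Malat1 locus, Gm37376 (chromosome 19, 5801941 to 5802393, on the strand opposite to Malat1 at 5795690 to 5802672) and also named after its values were seen, had 24, 81 and 57 counts with EZH2, 0 in each SET library and 365 to 595 in DNTCF4. The sources used here do not say if counting used strand, so its reads and those of Malat1 cannot be told apart.

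Mitochondrially encoded genes were called higher with EZH2 in 7 of 15 cases (46.7%, against 5.46% of all genes called) and lower in 0 (median 0.23). They held 1.63% to 1.67% of the counts in the EZH2 libraries against 1.38% to 1.43% in the SET libraries. mt-Nd1, a subunit of respiratory complex I, was at 1559.5, 1587 and 1534 CPM with EZH2 and 1123, 1158 and 1105 with SET (log2 difference 0.47, SE 0.047, adjusted p = 3.29e-05). mt-Nd4 of the same complex was at 1186, 1208 and 1184 against 969, 985 and 914 (log2 difference 0.32, SE 0.041, adjusted p = 0.000298) and mt-Cytb of complex III at 1226, 1264 and 1214 against 953, 992 and 927 (log2 difference 0.37, SE 0.047, adjusted p = 0.000277). In Vector mt-Nd1 stood at 1576 ± 11.9 and in DNTCF4 at 1165 ± 97.8. mt-Atp6 (-0.03, SE 0.16) and mt-Co3 (0.09, SE 0.30) did not pass. Without each 1 of the 6 libraries in turn 5 were called, and without DNTCF4 replicate 1, 11.

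**Figure D3:**
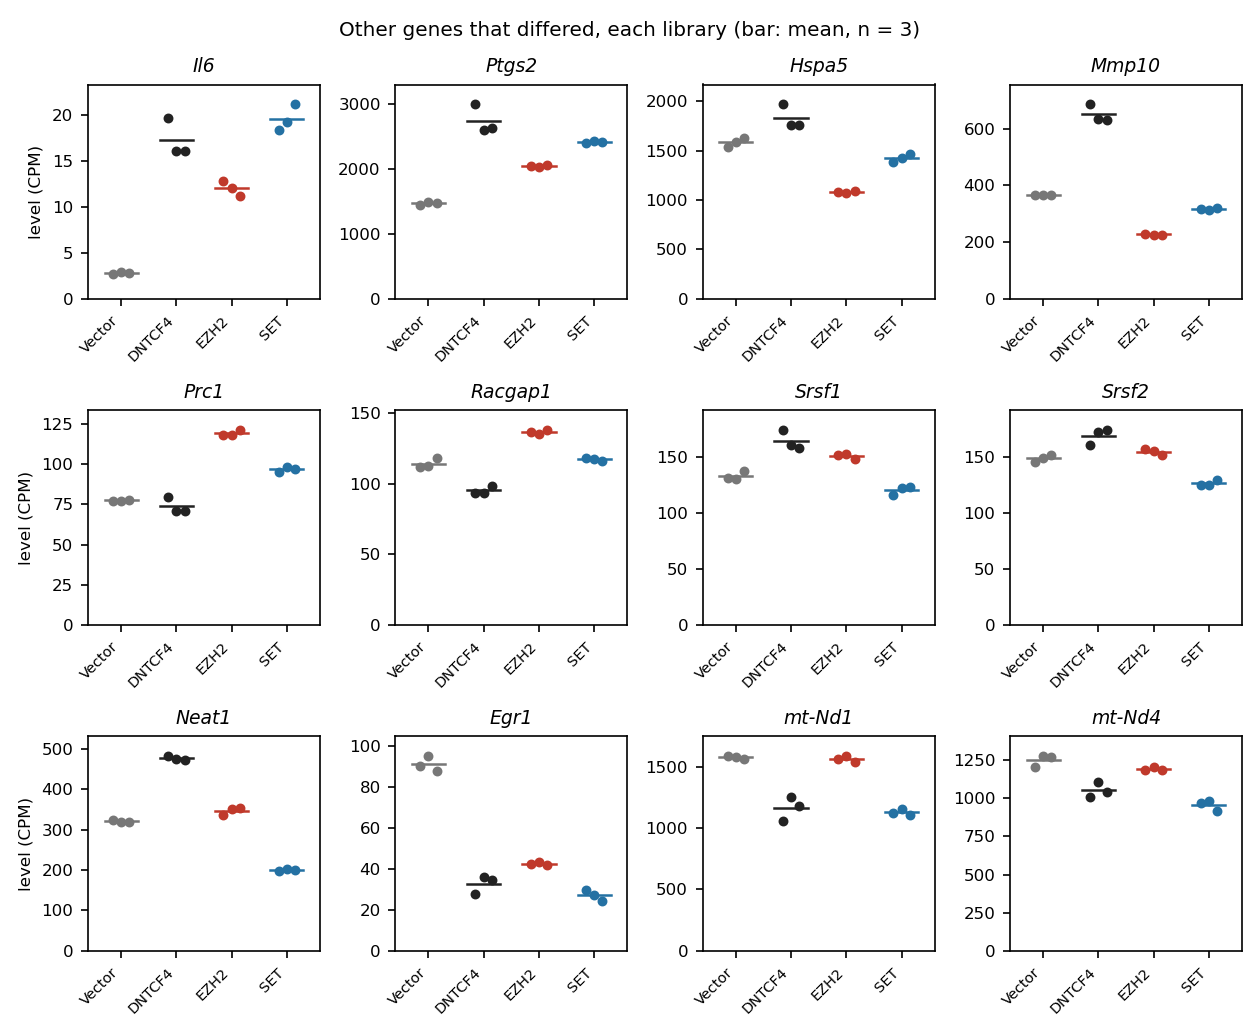
Level (CPM, vertical, from 0) of 12 genes outside the interferon list in each library of the 4 groups, with a bar at each mean. Il6, Ptgs2, Hspa5 and Mmp10 are lower with EZH2 than with SET, and the other 8 genes are higher, without overlap in any panel. All 12 are called genes, and the groups did not overlap for 32.5% of all genes.

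Reads on Ezh2 itself (ENSMUSG00000029687, chromosome 6, 47530139 to 47595341) were high in both groups. It was at 468, 428 and 452 CPM in the EZH2 libraries and 554, 511 and 575 in the SET libraries, so the group labelled SET had the higher level (log2 difference -0.28, SE 0.047, adjusted p = 0.00236). In DNTCF4 it stood at 65.4 ± 2.92 and in Vector at 57.8 ± 1.48. Counts per gene do not separate the cells' own transcript from that of a construct. Set (chromosome 2, 30057378 to 30072577) did not pass, at 528, 545 and 530.2 against 534, 552 and 569 CPM (log2 difference -0.05, SE 0.044, adjusted p = 0.623), and was at 616 ± 41.3 in DNTCF4. Tcf7l2, on which reads of the shared DNTCF4 construct may fall, was at 46.5, 46.3 and 43.5 with EZH2 and 37.9, 32.6 and 35.3 with SET (log2 difference 0.36, SE 0.094, adjusted p = 0.0356). That call was lost without EZH2 replicate 1, 2 or 3 (log2 0.35, 0.35 and 0.40) and without SET replicate 2 or 3 (0.31 and 0.37). Ctnnb1, encoding beta-catenin, did not pass (log2 difference -0.03, SE 0.035, adjusted p = 0.708). Ccn6, in the name of the line, had 1 count in 1 of the 6 libraries and 0 in the others, and Trp53 at most 2.

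In the Polycomb machinery 2 of 14 PRC2 genes (14.3%) and 0 of 21 PRC1 genes were called, against 5.46% of all genes. Of the 14 PRC2 genes, Ezh2 and Epop were called, both higher with SET, and the core partners Eed (-0.01, SE 0.043) and Suz12 (-0.04, SE 0.087) did not pass. Epop, an accessory subunit, was at 4.53, 5.48 and 5.46 against 6.98, 6.98 and 6.02 CPM (log2 difference -0.37, SE 0.10, adjusted p = 0.0495), and its call was lost without any 1 of the 6 libraries (log2 -0.44 to -0.28) and with DESeq2 (-0.38). Among 21 PRC1 genes 0 were called by edgeR in the main fit, DESeq2 called 1 and limma 0. An unadjusted p under 0.05 was found for 6 of them, and for 2850 of all 14591 genes. With the 6 libraries alone edgeR called 4 of the 21 and with GC offsets 5, where 2160 and 1747 genes were called in all. Of 28 SET-domain methyltransferase genes edgeR called 0 in the main fit, with 6 at an unadjusted p under 0.05, and DESeq2 and limma 1 each. The fit of the 6 libraries called 6 of the 28 and that with GC offsets 5. Of 14 genes around the SET protein and PP2A, 0 were called by any of the 3 tools and 0 had an unadjusted p under 0.05. The list of developmental regulators often marked by methylated H3 lysine 27 has 81 genes, of which 30 were tested and 51 had too few counts. Wt1 was the 1 gene called (3.33%, below the share of all genes), at 15.4, 16.2 and 16.6 CPM with EZH2 and 13.2, 13.5 and 13.9 with SET (log2 difference 0.25, SE 0.062, adjusted p = 0.03), and its call was lost without EZH2 replicate 2 or 3 or any of the SET replicates (log2 0.22 to 0.27). The H3K27 demethylase genes Kdm6a (-0.03, SE 0.047) and Kdm6b (0.02, SE 0.083) did not pass.

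Of 22 tested Wnt target genes 3 were called (13.6%, against 5.46% of all genes), Ccnd1 higher with EZH2 and Sox4 and Jag1 higher with SET, with a list median of -0.034. The calls of Ccnd1 and Jag1 were lost without EZH2 replicate 3 or SET replicate 3, among others. Sox4, a transcription factor linked to mesenchymal states, was at 491, 493 and 505 against 568, 575 and 559.6 CPM (log2 difference -0.19, SE 0.033, adjusted p = 0.00263). Axin2, a direct feedback target, was at 0.8199 ± 0.107 against 0.908 ± 0.0999 CPM and Notum, another, at 4.49 ± 0.277 against 3.77 ± 0.664, neither called. Of the CCN matricellular family, Ccn5 was higher with EZH2 (20.2, 19.4 and 21.00 against 16.3, 16.1 and 16.9 CPM, log2 difference 0.29, SE 0.057, adjusted p = 0.00643). Ccn1 was higher with SET (741, 737 and 745 against 906, 926 and 864 CPM, log2 difference -0.28, SE 0.057, adjusted p = 0.00986), a call lost without SET replicate 2 (log2 -0.26). Ccn2 (-0.15, SE 0.053), Ccn3 (0.14, SE 0.066) and Ccn4 (0.10, SE 0.067) did not pass. Of 20 mesenchymal genes 2 were called (10%, against 5.46% of all genes). They were S100a4, higher with EZH2 (log2 difference 0.40, SE 0.085, adjusted p = 0.0125), and Prrx1, higher with SET (log2 difference -0.17, SE 0.048, adjusted p = 0.0467). S100a4 lost its call without EZH2 replicate 1 or SET replicate 2 (0.38 and 0.33) and Prrx1 without any library but SET replicate 1 (-0.18 to -0.14), and Vim (0.12), Zeb1 (-0.06) and Fn1 (0.05) did not pass. Of 32 epithelial genes 1 was called (3.1%, below the 5.46% of all genes). It was Krt7 (log2 difference 0.19, SE 0.051, adjusted p = 0.0375), a call lost without any 1 of the 6 libraries (0.16 to 0.22).

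**Figure D4:**
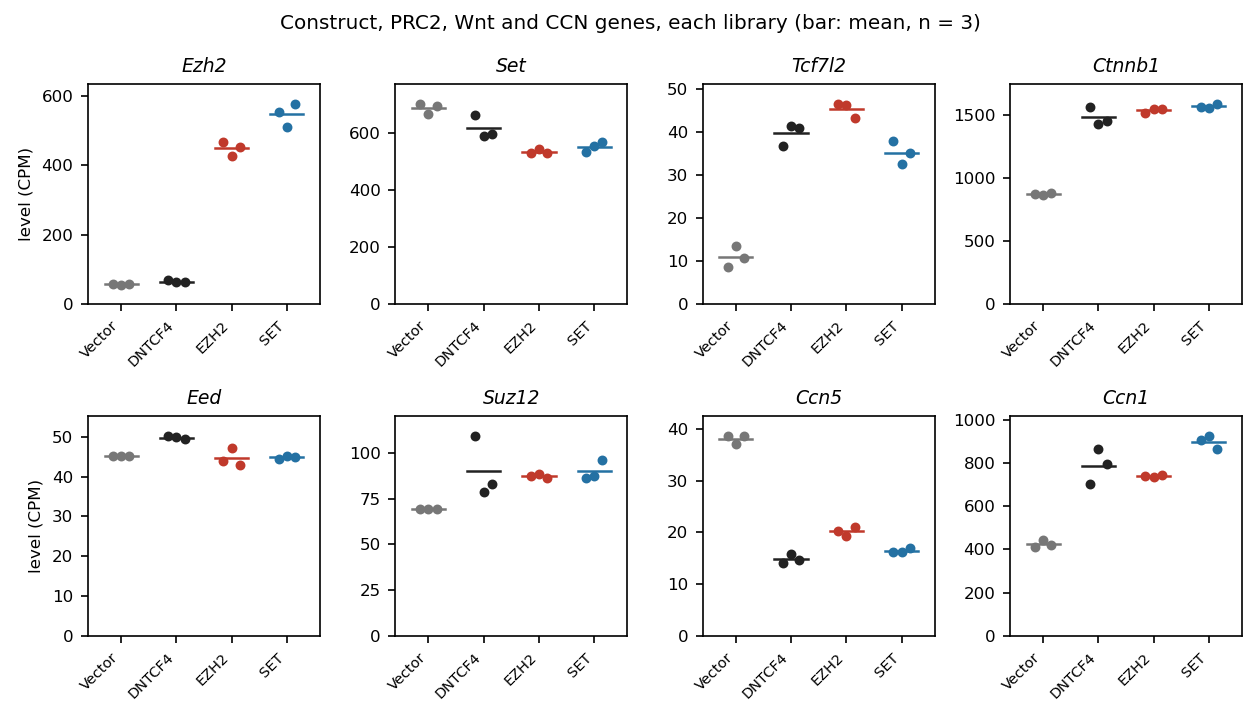
Level (CPM, vertical, from 0) of the construct genes and Ctnnb1, 2 PRC2 subunits and 2 CCN genes in each library of the 4 groups, with a bar at each mean. Ezh2 is high in both groups with a second construct, and the SET libraries (554, 511 and 575 CPM) lie above the EZH2 libraries (468, 428 and 452 CPM).

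Matrix and metabolic genes differed in part. Mmp10, the protease stromelysin-2, was at 229, 224 and 226 CPM with EZH2 and 317, 314 and 320.5 with SET (log2 difference -0.49, SE 0.036, adjusted p = 1.09e-06), and at 649 ± 32.1 in DNTCF4. Mmp13 (-0.09, SE 0.054) and Mmp9 (-0.12, SE 0.11) did not pass. Of 33 genes of metalloproteinases and their inhibitors 3 were called higher with SET and 2 higher with EZH2 (15.2%, against 5.46% of all genes). Of 26 collagen genes 5 were called (19.2%, against 5.46% of all genes), all higher with EZH2 (median 0.11). Among them were Col6a1 at 90.97, 92.4 and 93.2 against 75.4, 76.03 and 71.8 CPM (log2 difference 0.31, SE 0.061, adjusted p = 0.00753) and Col7a1, the anchoring fibril collagen, at 94.9, 94.8 and 105 against 83.4, 78.03 and 79.2 (log2 difference 0.29, SE 0.048, adjusted p = 0.00229). The 5 became 3, 4 and 2 without EZH2 replicate 1, 2 or 3, 5, 3 and 2 without SET replicate 1, 2 or 3, and 8 without DNTCF4 replicate 1. Of 33 genes of cholesterol and fatty acid synthesis 5 were called (15.2%), all higher with EZH2. That count was 2 or 3 without any 1 of the 6 libraries and 14 without DNTCF4 replicate 1. Elovl6 and Scd1, which lengthen and desaturate fatty acids, were among the 5, Scd1 at 505, 499.8 and 503 against 444, 437 and 442 CPM (log2 difference 0.19, SE 0.033, adjusted p = 0.00362). The immediate early gene Egr1 was at 42.2, 43.2 and 41.6 CPM with EZH2 and 29.7, 27.1 and 24.3 with SET (log2 difference 0.65, SE 0.082, adjusted p = 0.000258). Of the 35 tested genes on its list 1 was called higher with EZH2 and 2 higher with SET (8.57%, list median 0.008). Id1, a target of BMP signalling, was at 20.3, 18.5 and 19.8 against 14.1, 15.3 and 12.9 (log2 difference 0.47, SE 0.074, adjusted p = 0.0016). Sema6a, an axon guidance ligand, was lower with EZH2, at 20.2, 19.7 and 20.5 against 34.5, 32.8 and 30.3 CPM (log2 difference -0.69, SE 0.085, adjusted p = 0.000225). Of 44 axon guidance genes 1 was called higher with SET and 3 higher with EZH2 (9.09%, against 5.46% of all genes).

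Among the 15 largest differences in each direction, among called genes above 1 CPM without overlap, the calls of 4 higher with EZH2 (Neat1, mt-Co2, Spaca6 and Egr1) and 10 higher with SET held in every alternative tried. Those 10 were Ifi44, Phf11d, Gbp3, Oas1g, Oas2, Usp18, Ifi209, Chn1, Sel1l3 and Tppp3, the first 6 of which are on the interferon list. Chn1, which encodes a GTPase-activating protein for Rac, was at 0.439, 0.522 and 0.405 CPM with EZH2 and 1.18, 1.66 and 1.34 with SET (log2 difference -1.60, SE 0.28, adjusted p = 0.00333), close to the lowest levels tested. Sel1l3 was at 2.602, 2.71 and 3.102 against 5.08, 5.88 and 4.92 CPM (log2 difference -0.92, SE 0.12, adjusted p = 0.000354), and at 2.11 ± 0.187 in DNTCF4. Of the other genes in that set higher with EZH2, Adam1a (log2 difference 1.16, SE 0.28, adjusted p = 0.0246) and Tcea2 (log2 difference 1.15, SE 0.26, adjusted p = 0.0164) had the largest differences. Adam1a lost its call without EZH2 replicate 2 or 3 or SET replicate 1 or 3 (log2 0.99 to 1.12), and Tcea2 without EZH2 replicate 2 or SET replicate 2 or 3 (1.04 to 1.18).

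**Figure D5:**
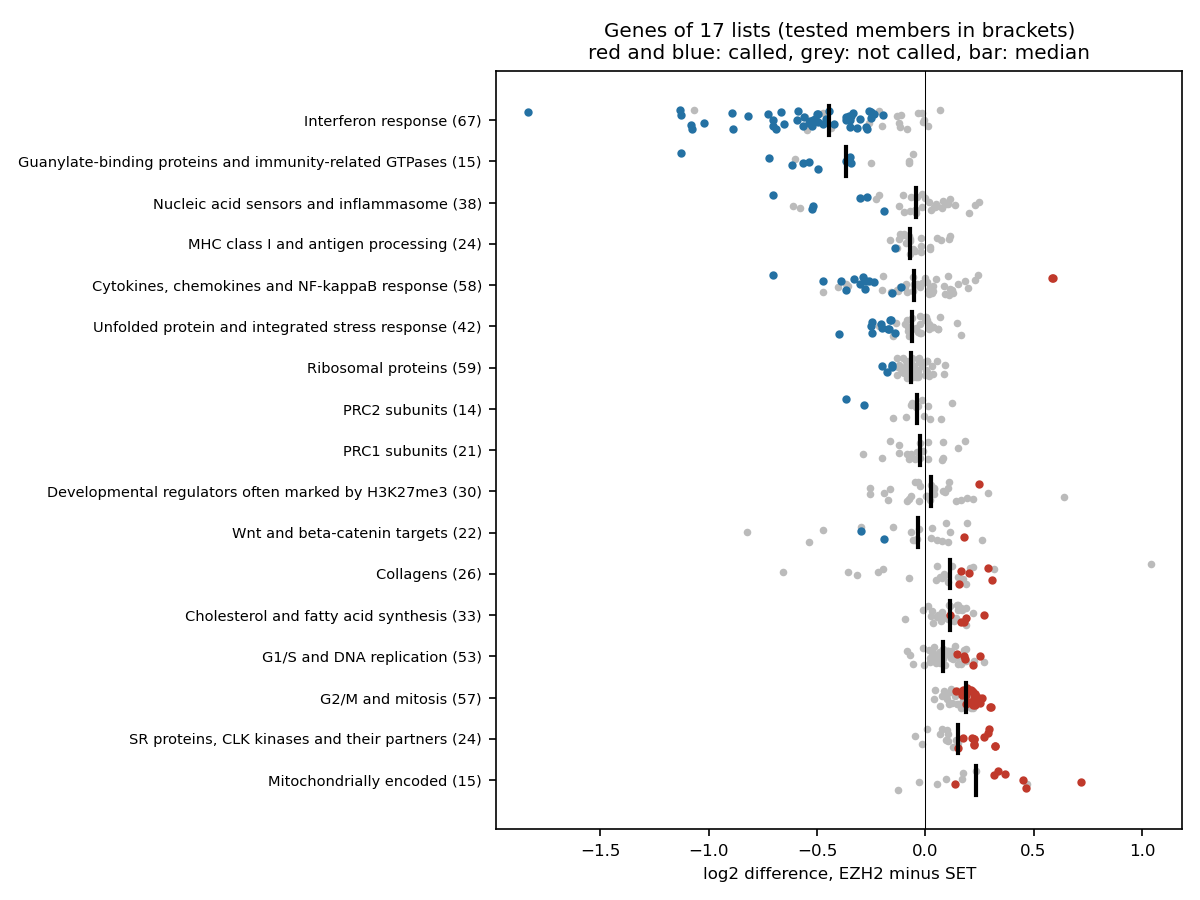
Log2 difference, EZH2 minus SET, of each tested gene (point) in 17 gene lists, with the number tested in brackets, called genes in red (higher with EZH2) or blue (higher with SET) and a bar at the median. The interferon list has its median at -0.44, and the 57 G2/M genes all lie to the right of 0.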

How the data were processed

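RNA-seq libraries were grouped by their titles. The deposited table holds RSEM expected counts per gene, not normalised, and rounding left them as they were because all were whole. A second deposited table holds rlog values of DESeq2, a regularised log2 scale, for 21754 genes. Cutadapt 2.3, FastQC 0.11.8, STAR 2.7.8a, RSEM 1.3.3, DESeq2 and GRCm38 were used, per the submitters' processing notes; settings and strand are not given in the sources used here. RSEM shares reads among similar genes, so values of close copies depend on its model.

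Counts were tested with edgeR 4.0.16 under R 4.3.3 after TMM scaling, in 1 fit over 12 libraries with a mean per group, using the quasi-likelihood test of EZH2 minus SET, two-sided, Benjamini-Hochberg adjustment over 14591 genes and a threshold of 0.05 (8 residual degrees of freedom, biological coefficient of variation 5.12%). The test was also run on simulated counts, which took their means from the SET libraries and their spread from this fit. There 12 of 180 calls were false. Of 50 genes changed by 1.25-fold 30 were recovered, of 50 changed by 1.5-fold 40 and of 50 changed by 2-fold 48. In the data 525 of the 796 called genes differed by less than 1.25-fold, and no change of that size was simulated. No simulated library stood apart as DNTCF4 replicate 1 does, so the data are not matched in that respect. Alternatives were DESeq2 size factors, DESeq2 1.42.0, limma 3.58.1 on the rlog values, other filters, the 6 libraries alone, a replicate block and each library left out; robust spread, GC offsets and a fit without DNTCF4 replicate 1 were added after seeing the data.

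Positions are GENCODE's for GRCm38 (14578 of 14591 genes matched by identifier); promoter windows are RefSeq's, matched by symbol. Named genes are the 15 largest differences per direction that were called, had no overlap between groups and a higher mean of at least 1 CPM, without predicted models; construct and model genes; up to 8 called members per list and direction; and any Polycomb, Wnt target, mesenchymal, epithelial or CCN gene. Members that did not pass are named where a list is described by them. Members and lists were chosen with earlier results of these data known, and the splicing lists after seeing these values.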

Additional observations from a re-analysis of the deposited data

How the results depend on the processing

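The alternatives were computed for 251 genes: called list members, the largest differences, the construct genes and some genes picked out by name. Of these 0 reversed direction, and 134 lost their call in at least 1 alternative, chiefly when a library was left out (587 of 705 losses). Most named genes that did not pass, many of them close to no difference, were not among the 251. Refits without 1 library (DNTCF4 replicate 1 among them) called 367 to 2119 genes in all, including 365 to 796 of the 796. In these refits 190 to 1112 were higher with EZH2, 167 to 1007 higher with SET and 9 to 48 differed by 2-fold or more. The 6 libraries alone gave 2160 calls (1111 and 1049 by direction, 58 of 2-fold or more). GC offsets gave 1747 (879 and 868, and 36). Calls of 2-fold or more numbered 0 on the shrunken rlog values, 89 without a filter and 8 above a mean of 1 CPM. DESeq2 called 911 genes (47.5% higher with EZH2, against 54.5%), DESeq2 size factors 781 (49.4%), limma on rlog values 820 (46.8%). Calls were rarer among low genes: under 1 CPM 15 of 1933 were called (0.776%), and at 100 CPM or more 225 of 2466 (9.12%).

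The labels number the replicates and do not say whether equal numbers belong together. Deviations of same-numbered libraries correlated at 0.014, -0.078 and -0.38 over 9240 genes, and no library correlated best with its own number. These values cannot settle how the samples were made. The replicate block gave 649 calls, 632 of them among the 796 (352 and 297 by direction, 24 of 2-fold or more). With the block and GC offsets together there were 1610 (809 and 801, and 36).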

Other observations

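Some gene groups outside the main account differed in a few members. Of 33 genes of the NRF2, glutathione and metallothionein list 6 were called higher with EZH2 and 1 with SET (21.2%, against 5.46% of all genes). Gclc, the rate-limiting enzyme of glutathione synthesis, was at 93.4, 95.8 and 94.3 CPM with EZH2 and 82.9, 81.9 and 80.7 with SET (log2 difference 0.21, SE 0.037, adjusted p = 0.00369), and Gsta4 differed by 0.31 (SE 0.056, adjusted p = 0.00406). The 6 were 2 or 3 without any 1 of the 6 libraries and 15 without DNTCF4 replicate 1. Aldh3a1, an aldehyde dehydrogenase, was at 28.8, 27.3 and 28.3 against 21.4, 23.8 and 20.6 CPM (log2 difference 0.36, SE 0.056, adjusted p = 0.00148). In glycolysis, Pfkp, the platelet-type phosphofructokinase, was higher with EZH2 (log2 difference 0.27, SE 0.034, adjusted p = 0.000286) and Pfkfb3, which makes its activator, higher with SET (log2 difference -0.25, SE 0.033, adjusted p = 0.000319). Of 59 ribosomal protein genes 4 were called (6.78%, near the 5.46% of all genes), all higher with SET (median -0.067), 0 to 2 without any 1 of the 6 libraries and 10 without DNTCF4 replicate 1.

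Calls were unevenly split over some chromosomes, which were picked out after their values were seen. On chromosome 17, 42 of 49 called genes were higher with EZH2, on X 19 of 24, and on chromosome 3 14 of 53, against 54.5% of all called genes. Xist and Firre, X-linked non-coding RNAs, were among them, Xist at 1859.6, 1798 and 1868 CPM with EZH2 and 1537, 1551 and 1564 with SET (log2 difference 0.25, SE 0.039, adjusted p = 0.00155). Across 9209 genes above 10 CPM the log2 difference had a Spearman correlation of 0.19 with GC content, a description across genes of the same 6 libraries. The median difference was -0.032 for the genes lowest in GC (1 in 10) and 0.027 for those highest.
The 2003 olfactory and vomeronasal receptor genes, of which 18 were tested and 0 called by edgeR (4 at an unadjusted p under 0.05, 1 by DESeq2, 0 by limma), summed to between 56.7 and 59.6 CPM in the EZH2 libraries and between 61.2 and 90.4 in the SET libraries.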
